A study of Homo sapiens with 12 samples.

Results

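The clustered histone genes of the mesothelioma line MSTO-211H were followed across 4 treatment groups. They were taken as every protein-coding gene of the expression table whose symbol starts with HIST1H, HIST2H, HIST3H or HIST4H, which gave 71 of 58735 genes. The rule uses the symbol and the gene type, not a measured level. By class they were 6 H1, 17 H2A, 18 H2B, 15 H3 and 15 H4 genes, with 55 on chromosome 6 (HIST1), 15 on chromosome 1 (HIST2 and HIST3) and 1 on chromosome 12 (HIST4).

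Clustered histone genes supply the histones that package newly copied DNA. Most are intronless and transcribed in S phase under NPAT, a coactivator that sits at the histone clusters. Their mRNA ends after a short conserved stem-loop in place of a poly(A) tail, and the stem-loop binding protein SLBP takes part in its processing, translation and decay. Some members can also be transcribed past the stem-loop to a polyadenylation site, and such mRNA has been described in cells that differentiate or stop dividing. H2A, H2B, H3 and H4 form the nucleosome core, and H1 binds the linker DNA.

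MSTO-211H is an established human line, grown here in suspension with growth factors, and the submitters call the cells mesothelioma-initiating. The groups were Combo (10 µM of a compound the labels name QTP, with 4 Gy), Rx (QTP with a sham exposure), IR (vehicle with 4 Gy) and Con (vehicle with a sham exposure), with 3 libraries each. RNA was taken 48 h after irradiation. The labels give Rx and Combo as titles alone, and their treatments were read from the 4 arms of the design text. The labels do not tell whether replicate libraries are separate cultures or repeats of 1, and p-values here measure only their spread.

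Expression was deposited as FPKM, reads per kilobase of gene model scaled to library size. Whole reads could be recovered from it, 13188257 to 18630958 per library. A gene of 1 kb with an FPKM of 1 had 13.3 to 19.1 reads, and 6.73 to 10.5% of reads were mitochondrial. Of 11 mesothelial markers, 4 averaged at least 1 FPKM (MSLN, CALB2, KRT8, KRT18), and PDPN was listed at 0. Of 12 markers of other cell types, 4 did (COL1A1, COL3A1, PDGFRB, ACTA2), whereas CD3E was at 0 and PTPRC had 8 reads in all. Whether the libraries were selected for poly(A) is not given in the sources used here. Of 20 RNAs that lack a poly(A) tail, 15 were listed at 0, but RN7SL2 ranged from 35.3 to 697 FPKM across libraries.

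The stem-loop is shown for 4 well expressed members, since it tells where the usual mRNA ends and whether the gene model used for counting runs beyond it. The sequences are those of GENCODE 29 transcripts, 5′ to 3′ on the sense strand, with the pairing arms in capitals and the loop in lower case. They lie on hg38 at chr1:228457369-228457384 on the minus strand for HIST3H2A, and on the plus strand at chr6:26124669-26124684 for HIST1H2AC, chr6:26158587-26158602 for HIST1H2BD and chr6:27139654-27139669 for HIST1H4I.
HIST3H2A: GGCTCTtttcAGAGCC
HIST1H2AC: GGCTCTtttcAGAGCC
HIST1H2BD: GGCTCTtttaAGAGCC
HIST1H4I: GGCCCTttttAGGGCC

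Counted over the members, the first form above occurred in 17, the HIST1H2BD form in 5 and the HIST1H4I form in 3. Another 5 members carried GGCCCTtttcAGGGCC, 1 carried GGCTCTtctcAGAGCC and 1 GGCTCTtttcAGGGCC. The pattern searched on the sense strand was the letters that these forms share, with any base at the 4 places where they differ. It was found in the transcripts of 32 of the 71 members (45.1%) and of 10 of 19851 other protein-coding genes (0.0504%). The models of 23 members ran at least 100 bases past the stem-loop, those of 9 ended within 100 bases of it, and those of 39 did not contain it. Of these 39, 33 held the coding bases alone, so reads from their untranslated ends could not be counted.

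Promoters are shown for HIST1H2BK, the most abundant member, for HIST1H2AC, which had the smallest p in Combo against Con, and for HIST3H2A, an abundant member whose level hardly differed between groups. Each window covers 250 bases before to 50 after the start, from RefSeq on GRCh38.p14. They are chr6:27146809-27147108 on the minus strand, chr6:26123922-26124221 on the plus strand and chr1:228457824-228458123 on the minus strand. Capitals mark ATTTGCAT (the octamer), CCAAT and TATAAA, searched on both strands, so the reverse forms ATGCAAAT, ATTGG and TTTATA are capitalised too. The run of 8 capitals TTTATAAA in HIST1H2BK is an overlap of both forms of the last motif.
HIST1H2BK: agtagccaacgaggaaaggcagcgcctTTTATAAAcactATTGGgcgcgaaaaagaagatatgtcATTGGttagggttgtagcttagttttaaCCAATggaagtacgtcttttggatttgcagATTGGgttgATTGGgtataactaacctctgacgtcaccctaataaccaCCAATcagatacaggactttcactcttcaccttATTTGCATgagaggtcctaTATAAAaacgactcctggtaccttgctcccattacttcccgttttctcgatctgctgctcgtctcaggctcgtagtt
HIST1H2AC: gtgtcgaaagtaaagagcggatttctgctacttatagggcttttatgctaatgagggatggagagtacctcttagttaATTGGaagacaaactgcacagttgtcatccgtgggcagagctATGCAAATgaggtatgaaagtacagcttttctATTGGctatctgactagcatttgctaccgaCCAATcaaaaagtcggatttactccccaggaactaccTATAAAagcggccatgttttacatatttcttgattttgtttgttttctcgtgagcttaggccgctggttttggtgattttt
HIST3H2A: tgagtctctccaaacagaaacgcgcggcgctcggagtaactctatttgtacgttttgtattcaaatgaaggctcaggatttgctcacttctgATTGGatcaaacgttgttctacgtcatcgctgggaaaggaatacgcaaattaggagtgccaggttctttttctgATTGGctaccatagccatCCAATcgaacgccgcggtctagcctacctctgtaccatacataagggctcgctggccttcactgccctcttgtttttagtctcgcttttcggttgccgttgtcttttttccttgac

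Windows were found for 61 of the 71 members. The octamer, known as a site for the factor POU2F1 (Oct-1) in H2B promoters, stood in 14 of 18 H2B and 11 of 14 H2A windows, in 1 of 10 H3 windows, and in none of 6 H1 or 13 H4 windows. The H3 window is that given for HIST1H3D, which lies 1994 bases from the HIST1H3D gene model. It is the same stretch as the HIST1H2AD window, so it is counted under both H3 and H2A. Windows of neighbouring H2A and H2B genes also overlap, as for HIST1H2AC with HIST1H2BC and HIST2H2BE with HIST2H2AC. An octamer in the overlap counts in both classes, so the H2A and H2B counts are not separate. Among all 27305 promoter windows 1.80% held the octamer. CCAAT stood in 51 of 61 members' windows against 35.7% of all windows, and was found in 3 of 13 H4 windows. TATAAA stood in 40 of 61 members' windows against 3264 of all 27305. The HIST3H2A window held CCAAT matches, with neither the octamer nor TATAAA, and the HIST1H1C window likewise held CCAAT alone. The HIST1H4H window held no match, whereas those of HIST2H2BE and HIST1H2BC held every motif. Whether a motif goes with a difference between groups was not tested.

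The level was concentrated in a few members. Of 25171 reads assigned to the 71 genes in all libraries, 57.0% fell on 3 genes and 87.6% on the 13 that averaged at least 1 FPKM. The 58 others averaged less: 44 of them had reads and 14 had none in any library. For these 14, a count of 0 allows up to 3 reads, or at most 0.137 to 0.761 FPKM in the shallowest library, depending on the length of the model, and this covers counting error only. Just above the limit for testing was HIST1H4K at 1.07 FPKM, and just below it was HIST1H2BJ at 0.968 FPKM.

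Read support differed between kinds of gene model. Members whose model ran past the stem-loop had a median of 236 reads over the 12 libraries, and 13 of the 23 had at least 100. Those whose model ended near the stem-loop had a median of 29 reads, with at least 100 in 2 of 9. Those without the stem-loop had a median of 2 reads, with at least 100 in 3 of 39. On the FPKM scale, which divides by length, the medians were 0.494, 0.311 and 0.0245. Of the members without the stem-loop 3 averaged at least 1 FPKM (HIST1H2BK, HIST1H1C and HIST1H4K), and HIST1H2BK and HIST1H1C were among the most abundant of all members. For HIST1H2BK the table lists 381 bases, whereas RefSeq gives the gene a span of 8566 bases. The model classes also differ in length, in class of histone and in shared sequence, which cannot be told apart here.

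**Figure D1:**
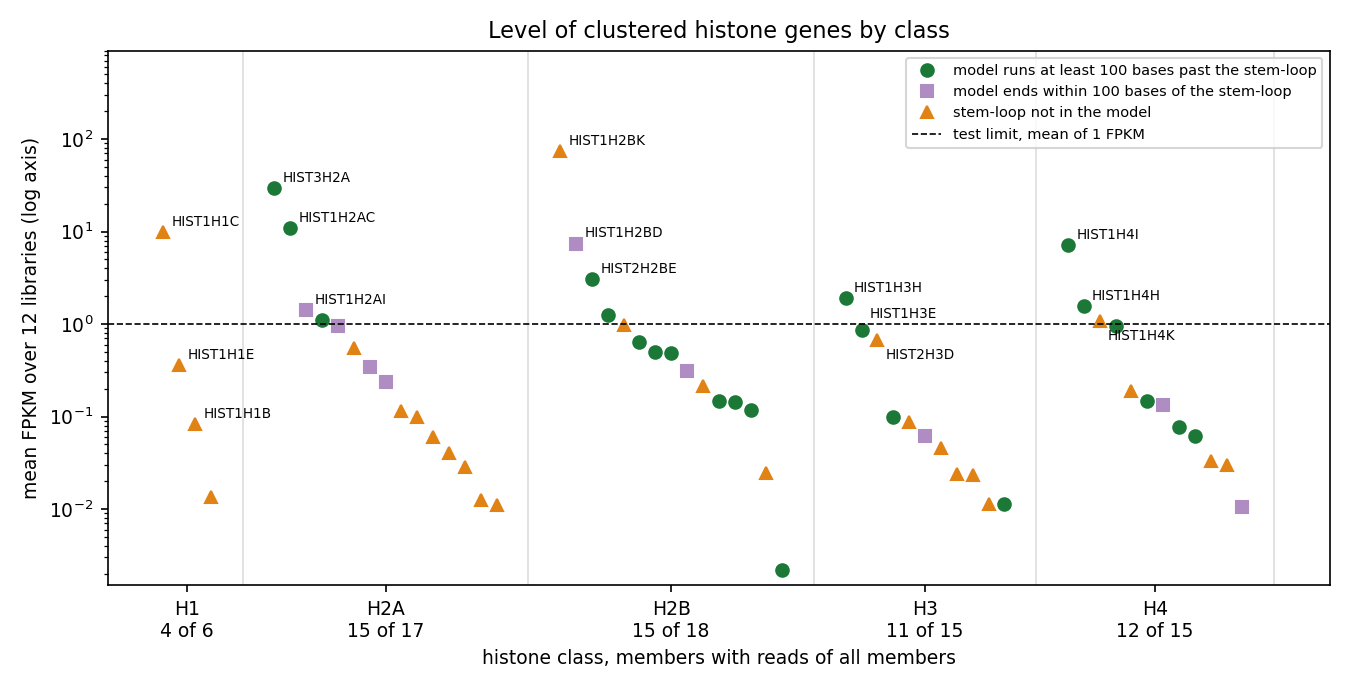
Mean FPKM over 12 libraries (log axis) of each member with reads, by histone class, with the 3 highest of each class named. Marker shape gives where the gene model ends relative to the stem-loop, and the dashed line is the test limit of 1 FPKM. Of 71 members 57 had reads, and 13 stand above the line.

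Among the clustered H1 genes the level came almost wholly from HIST1H1C (H1.2), which gave 95.5% of their summed FPKM. HIST1H1C had 10.6, 7.93 and 12.5 FPKM in Combo, 10.3, 9.40 and 7.61 in Rx, 11.8, 12.3 and 11.5 in IR, and 8.56, 7.36 and 7.75 in Con. The 3 IR libraries lay above every Con library, while Combo and Rx each overlapped Con. HIST1H1E (H1.4) had 1, 1 and 4 reads in Combo, 7, 16 and 5 in Rx, 0, 1 and 0 in IR, and 6, 7 and 7 in Con. All 6 irradiated libraries had fewer HIST1H1E reads than all 6 sham libraries. Of the 11505 genes under 1 FPKM with at least 10 reads in all, 0.0782% had irradiated libraries all below sham in FPKM, and 0.139% had them all above. HIST1H1B (H1.5) had 2, 0 and 0 reads in Combo, 1, 0 and 0 in Rx, 0 in each IR library, and 1, 5 and 2 in Con. HIST1H1A had 2 reads in all, and HIST1H1D and the testis form HIST1H1T had none.

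**Figure D2:**
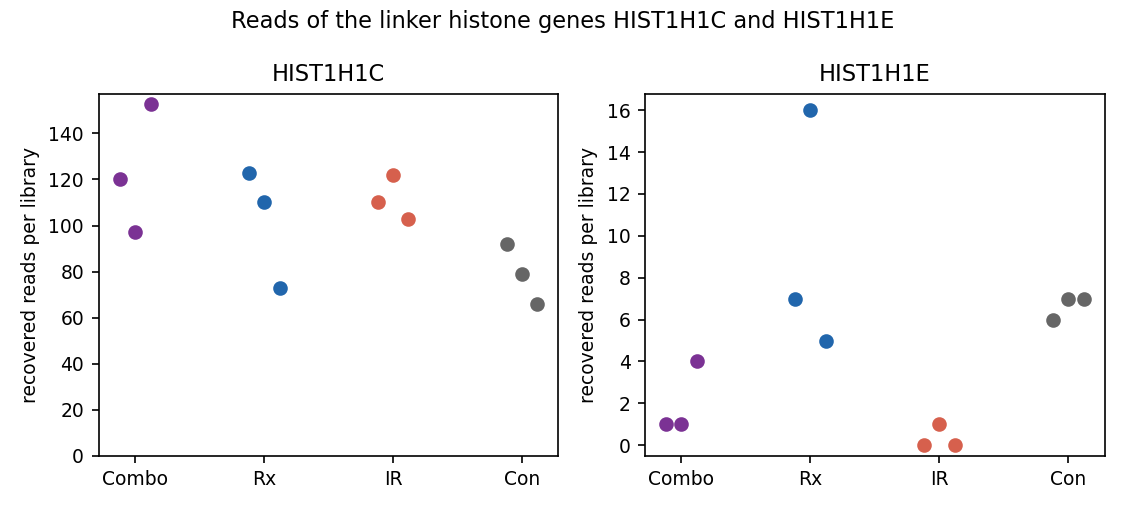
Recovered reads in each library (points) of HIST1H1C (left) and HIST1H1E (right) in Combo, Rx, IR and Con. HIST1H1C had 66 to 153 reads, and HIST1H1E had 0 to 4 reads in irradiated and 5 to 16 in sham libraries.

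H2A genes summed to 46.6 ± 6.81 FPKM in Combo, 45.4 ± 3.43 in Rx, 48.0 ± 8.94 in IR and 42.3 ± 8.99 in Con (SD, n = 3 each), with 65.1% of the sum from HIST3H2A. HIST3H2A had 27.6, 25.2 and 33.3 FPKM in Combo, 29.7, 29.5 and 33.8 in Rx, 29.1, 24.1 and 36.9 in IR, and 26.0, 23.8 and 36.9 in Con. Its groups overlapped in every comparison. HIST1H2AC, a member known to give polyadenylated mRNA as well, had 14.8, 10.3 and 13.3 FPKM in Combo, 9.76, 9.48 and 10.4 in Rx, 12.4, 10.1 and 14.8 in IR, and 8.88, 7.63 and 9.17 in Con. The 3 Con libraries were the lowest of all 12. HIST1H2AI had 1.58, 1.04 and 1.87 FPKM in Combo, 2.04, 0.546 and 1.46 in Rx, 1.37, 1.55 and 1.71 in IR, and 0.594, 1.55 and 1.80 in Con, on 5 to 19 reads a library. Its groups overlapped, and 60.1% of its 75-base stretches also occur in transcripts of other genes, so its reads may be shared. HIST1H2AG had 28 to 68 reads a library and averaged 1.30 FPKM in Combo, 1.03 in Rx, 1.14 in IR and 0.944 in Con. Its Con mean, and its mean of 0.987 over the sham libraries, lay under the test limit of 1 FPKM. A higher mean of HIST1H2AG in the other groups is therefore no support. HIST1H2AG nevertheless stays in the counts and medians given below without HIST1H4K. The other 13 H2A members averaged under 1 FPKM, 2 of them with no read (HIST1H2AA and HIST1H2AK).

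H2B genes had the largest summed level of the 5 classes, 97.2 ± 12.7 FPKM in Combo, 83.7 ± 9.08 in Rx, 106.6 ± 19.7 in IR and 69.5 ± 10.5 in Con (SD, n = 3 each). HIST1H2BK gave 82.9% of it. HIST1H2BK had 84.3, 68.7 and 86.8 FPKM in Combo, 64.1, 64.7 and 78.2 in Rx, 80.6, 78.9 and 109.5 in IR, and 51.9, 51.6 and 68.7 in Con. All Combo and all IR libraries lay above the highest Con library, by a small margin for the lowest Combo library, and Rx overlapped Con. Each value rests on 329 to 632 reads, but 50.5% of its 75-base stretches also occur in other transcripts. HIST1H2BD, known to be polyadenylated too, had 7.90, 6.57 and 10.1 FPKM in Combo, 7.12, 7.81 and 7.15 in Rx, 7.78, 7.53 and 11.1 in IR, and 5.69, 5.70 and 4.33 in Con. Every treated library lay above every Con library. The gene overlaps AL353759.1 and LARP1P1, whose reads could be counted with it. HIST2H2BE had 3.65, 3.01 and 3.72 FPKM in Combo, 2.53, 2.73 and 3.57 in Rx, 3.03, 2.81 and 4.01 in IR, and 1.66, 2.32 and 3.61 in Con, with overlap throughout. Without HIST1H2BK the H2B sum was 17.3 ± 3.33 FPKM in Combo, 14.7 ± 1.23 in Rx, 16.9 ± 2.53 in IR and 12.1 ± 0.732 in Con. HIST1H2BC averaged 1.24 FPKM, the other 14 H2B members averaged under 1, and HIST1H2BA, HIST1H2BB and HIST1H2BM had no read.

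H3 genes were the lowest class, at 3.86 ± 0.477 FPKM in Combo, 3.85 ± 0.248 in Rx, 4.37 ± 1.08 in IR and 3.19 ± 0.505 in Con (SD, n = 3 each). HIST1H3H, the only H3 member tested, had 2.16, 1.74 and 2.33 FPKM in Combo, 1.92, 1.82 and 1.62 in Rx, 1.90, 1.63 and 2.72 in IR, and 1.40, 1.59 and 2.25 in Con, and its groups overlapped. HIST1H3E had 0.722, 0.783 and 1.21 FPKM in Combo, 0.825, 0.860 and 0.750 in Rx, 0.826, 1.04 and 1.02 in IR, and 0.781, 0.536 and 0.900 in Con, again with overlap. HIST2H3D had 0.830, 0.383 and 0.636 FPKM in Combo, 0.656, 0.534 and 1.30 in Rx, 0.505, 0.632 and 1.39 in IR, and 0.291, 0.582 and 0.367 in Con, on 2 to 8 reads a library. At so few reads no order of the groups can be read for HIST2H3D. The other 12 H3 members had 45 reads or fewer in all, and 4 had none. The replacement genes H3F3A and H3F3B, which make H3.3 outside S phase as well, averaged 33.7 and 81.5 FPKM over the 12 libraries.

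H4 genes summed to 12.8 ± 1.36 FPKM in Combo, 9.98 ± 1.03 in Rx, 12.5 ± 2.30 in IR and 10.3 ± 1.35 in Con (SD, n = 3 each), with 62.6% from HIST1H4I. HIST1H4I had 7.91, 6.73 and 7.72 FPKM in Combo, 6.96, 5.94 and 6.57 in Rx, 6.79, 6.52 and 10.8 in IR, and 5.86, 6.28 and 7.40 in Con. The groups overlapped, and the 10.8 FPKM of IR 3 stood apart from the other 2 IR libraries. HIST1H4H had 2.63, 1.70 and 2.08 FPKM in Combo, 1.496, 1.04 and 1.49 in Rx, 0.927, 1.56 and 2.18 in IR, and 0.939, 1.30 and 1.36 in Con. All Combo libraries lay above all Rx and all Con libraries, while IR spanned the range. HIST1H4K had 7, 8 and 9 reads in Combo, 6, 6 and 1 in Rx, 11, 5 and 4 in IR, and 3, 4 and 3 in Con, and every 75-base stretch of it also occurs in other transcripts. HIST1H4K averaged 1.38 FPKM in Combo, 0.769 in Rx, 1.47 in IR and 0.689 in Con, so it passed the test limit of 1 FPKM only through Combo and IR. Its place among higher members is therefore no support, and counts are also given without it. The other 12 H4 members averaged under 1 FPKM, and HIST1H4F, HIST1H4G and HIST1H4L had no read.

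**Figure D3:**
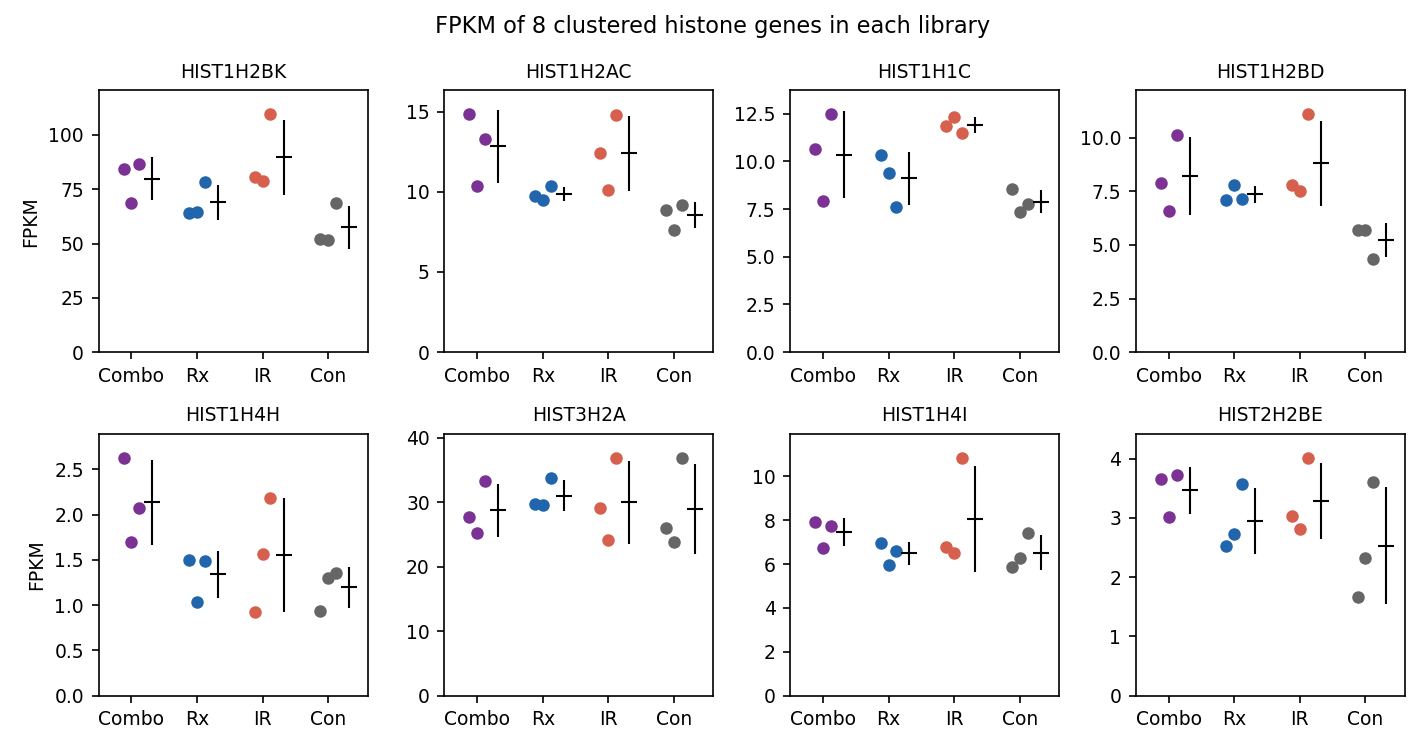
FPKM of 8 members in Combo, Rx, IR and Con, with 1 point per library and the mean ± SD (n = 3) beside each group. HIST1H2BK, HIST1H2AC and HIST1H2BD lie lower in Con than in Combo and IR, whereas HIST3H2A overlaps in all groups.

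Differences were tested with limma on log2(FPKM + 1) over the 13038 genes that averaged at least 1 FPKM, 13 of them members. This scale understates the change of low genes, and the 58 members below the limit were not part of these tests. Fitted without the limit, the 57 members with reads had median log2 differences of 0.058 in Combo against Con, 0.013 in Rx against Con, 0.057 in IR against Con, 0.058 in Combo against Rx and 0.046 for radiation averaged over QTP. The medians given next are over the 13 tested members. Means counted from here on as higher or lower are means of log2(FPKM + 1), which can differ in order from mean FPKM. The 3 comparisons with Con share its libraries, so their values stand side by side and do not back each other. In bulk RNA, fewer cells that transcribe a gene and less RNA of it per cell cannot be told apart.

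In Combo against Con all 13 tested members had a higher mean log2(FPKM + 1), or 12 of 12 without HIST1H4K. For HIST3H2A the difference was 0.0068 (SE 0.18), and its mean FPKM was lower, 28.7 in Combo and 28.9 in Con. The median log2 difference was 0.33 against -0.01 over all genes. None of the 13 passed the adjusted threshold of 0.05, as was so for all 13038 genes (0%). With the replicate number as a block, HIST1H2BK and HIST1H2AC were called (limma adjusted p = 0.0470 each), among 90 genes in all. Whether the numbers pair the libraries is not known. At an unadjusted p under 0.05, 5 of 13 members were higher, where 5.49% of all genes were. HIST1H2AC had a log2 difference of 0.52 (SE 0.14, limma adjusted p = 0.171), HIST1H2BD of 0.55 (SE 0.16, adjusted p = 0.196), HIST1H2BK of 0.48 (SE 0.15, adjusted p = 0.248), HIST1H4H of 0.51 (SE 0.18, adjusted p = 0.288) and HIST1H1C of 0.33 (SE 0.14, adjusted p = 0.345). Tested members whose Combo libraries all lay above all Con libraries numbered 4 (HIST1H2BK, HIST1H2AC, HIST1H2BD and HIST1H4H), or 5 with HIST1H4K, against 10% of all genes, and none of the 13 lay all below, against 12.8%. After rescaling to TPM, HIST1H2AG joined them, which made 6 with HIST1H4K, against 6.82% of all genes. HIST1H2AG averaged 0.944 FPKM in Con, under the test limit, and 1.30 in Combo, so its place here is no support either. The median log2 difference was 0.29 without HIST1H4K and 0.20 without Combo 3, where leaving out IR 3 as well kept 12 of 13 means higher.

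In IR against Con 12 of 13 members had a higher mean, or 11 of 12 without HIST1H4K. The median log2 difference was 0.24 (0.22 without HIST1H4K) against 0.01 over all genes. Limma called 0 members and 0% of all genes, and at an unadjusted p under 0.05, 4 members were higher and none lower, against 3.69% of all genes higher and 3.17% lower. These were HIST1H2BD with a log2 difference of 0.64 (SE 0.16), HIST1H2BK of 0.63 (SE 0.15), HIST1H1C of 0.54 (SE 0.14) and HIST1H2AC of 0.48 (SE 0.14), each with an adjusted p of 0.680. In these 4 all IR libraries lay above all Con libraries, or in 5 with HIST1H4K, against 5.56% of all genes, and none of the 13 lay all below, against 4.98%. HIST1H4K was apart only after scaling for depth, since 1 IR and 1 Con library had 4 reads each, and it was no longer apart after rescaling to TPM (4 members, against 1.62% of all genes). The median log2 difference was 0.12 without Con 1 and 0.13 without IR 3. HIST3H2A stood at 0.06 (SE 0.18) and HIST1H2BC at -0.14 (SE 0.25).

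In Rx against Con 11 of 13 members had a higher mean, or 10 of 12 without HIST1H4K, with a median log2 difference of 0.09. After rescaling to TPM 7 of 13 had a higher mean, and the median of all genes moved to -0.08. The members' median was 0.0033 without Con 1 and 0.18 without Rx 2. Limma called 0 members and 0% of all genes. HIST1H2BD alone reached an unadjusted p under 0.05, as did 2.36% of all genes in the higher and 0.897% in the lower direction, with a log2 difference of 0.43 (SE 0.16, adjusted p = 1.00). HIST1H2AC and HIST1H2BD were the 2 members whose Rx libraries all lay above Con, against 4.6% of all genes, and none of the 13 lay all below, against 3.18%. After rescaling to TPM this held for HIST1H2BD alone, against 1.32% of all genes.

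**Figure D4:**
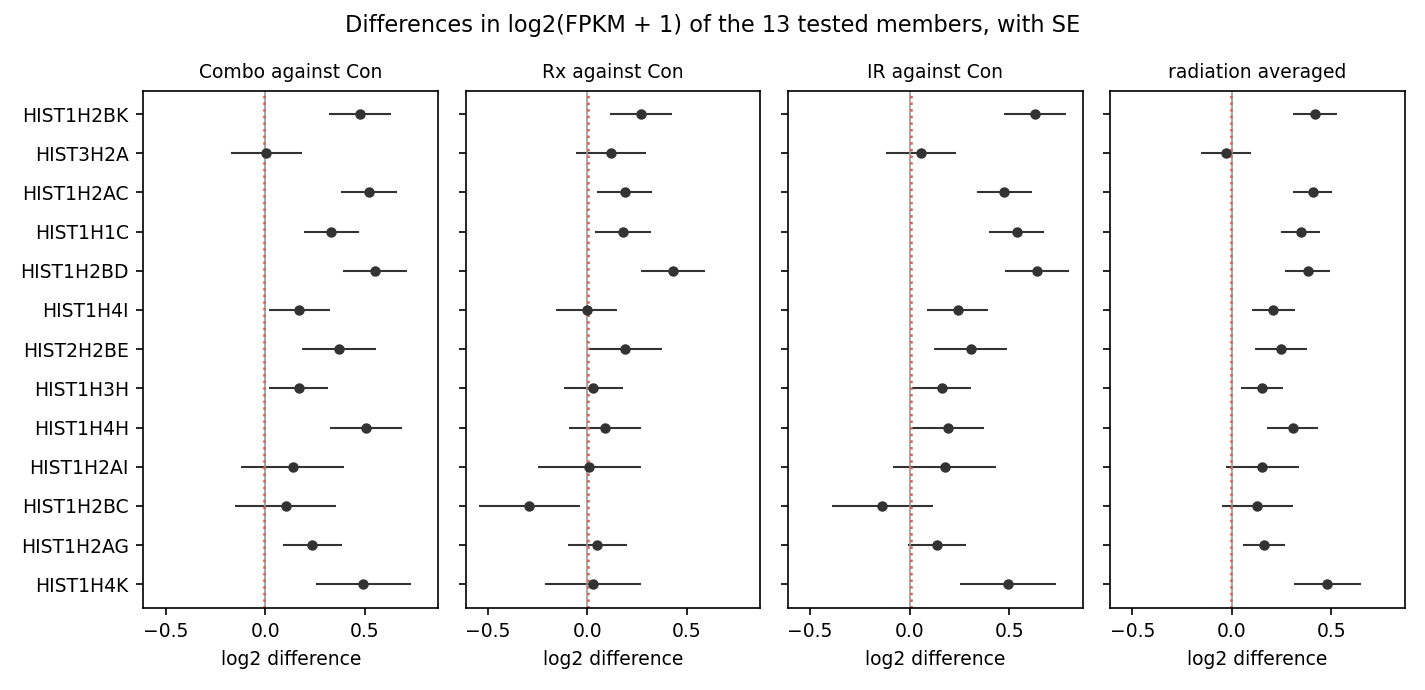
Differences in log2(FPKM + 1) with SE of the 13 tested members in Combo against Con, Rx against Con, IR against Con, and irradiated against sham libraries averaged over QTP. Points right of 0 are higher in the first named group, and the dotted line is the median of all tested genes. No member passed the adjusted threshold in this fit, which held no replicate block.

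QTP added to radiation, Combo against IR, gave no unadjusted p under 0.05 among the 13 members, where 5.91% of all genes were higher and 11.6% lower at that level. The median log2 difference was -0.0021, and 6 of 13 means of log2(FPKM + 1) were higher. One of the 6, HIST1H3H, had a lower mean FPKM in Combo (2.075) than in IR (2.082). After rescaling to TPM 11 of 13 means were higher, and the median of all genes moved to 0.09 and that of the members to 0.10. Leaving out 1 library moved the members' median from -0.10 (without IR 2) to 0.14 (without IR 3). None of the 13 had its groups apart, against 8.53% of all genes above and 11.6% below. Limma called 0 members, with an adjusted p of 0.383 or more for each, and 0% of all genes. Without IR 1 it called 956 genes, none of them a member.

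Radiation added to QTP, Combo against Rx, gave a higher mean in 12 of 13 members, or 11 of 12 without HIST1H4K. The median log2 difference was 0.18. Limma called 0 members and 0% of all genes. HIST1H4H (0.42, SE 0.18) and HIST1H2AC (0.33, SE 0.14) had an unadjusted p under 0.05, with a limma adjusted p of 0.545 each, and 2.81% of all genes were higher and 6.3% lower at that level. HIST1H4H had all Combo libraries above all Rx libraries, as did HIST1H4K, against 8.26% of all genes, and none of the 13 had them all below, against 12.7%. After rescaling to TPM, HIST1H2AC and HIST1H4I joined them, which made 4 with HIST1H4K, against 16.8% of all genes.

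Averaged over QTP, the 6 irradiated libraries had a higher mean than the 6 sham libraries in 12 of 13 members. Without HIST1H4K this was 11 of 12, with a median log2 difference of 0.23. With all 13 the median was 0.25 against -0.0037 over all genes. Limma called 0 members and 0% of all genes. At an unadjusted p under 0.05, 5 members were higher, where 3.34% of all genes were: HIST1H2AC (0.41, SE 0.10), HIST1H2BK (0.42, SE 0.11), HIST1H1C (0.35, SE 0.10), HIST1H2BD (0.38, SE 0.11) and HIST1H4H (0.31, SE 0.13). HIST1H4K (0.48, SE 0.17) would make 6, but passed the limit through the irradiated groups. The smallest adjusted p among them was 0.379. In none of the 13 did the 6 irradiated libraries all lie above the 6 sham libraries, against 0.176% of all genes, or all below, against 0.284%. Without IR 3 and Combo 3 the median was 0.16, with 5 of 13 members and 8.84% of all genes at an unadjusted p under 0.05 in either direction.

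Averaged over radiation, QTP gave 9 of 13 higher means, or 8 of 12 without HIST1H4K, and a median log2 difference of 0.03. No member had an unadjusted p under 0.05, where 5.21% of all genes were higher and 6.17% lower. The members' median was -0.0069 without Combo 3 and 0.12 without Rx 2. In none of the 13 were the QTP libraries all above or all below the others, against 0.621% and 0.23% of all genes. The largest value was that of HIST1H4H at 0.20 (SE 0.13, limma adjusted p = 0.588). Of all genes 12 passed the adjusted threshold (0.092%), none of them a member. That count was 0 without Con 1, Con 2, Con 3, IR 2, IR 3, Rx 3 or Combo 3, 1 without Rx 2 or Combo 2 and 2 without Combo 1.

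The interaction, the effect of radiation with QTP less that without it, had a median log2 difference of -0.07 over the 13 members, and of -0.19 without Con 3 and 0.019 without Con 1. Rescaling to TPM moved the median of all genes to 0.16 and that of the members to 0.09, which is 0.06 below all genes in place of 0.04. HIST1H2BD alone had an unadjusted p under 0.05, at -0.52 (SE 0.23, limma adjusted p = 0.609), where 5.31% of all genes were lower and 2.32% higher at that level. The interaction was above 0 in 3 of 13 members, or 10 of 13 after rescaling to TPM. Limma called 0 members and 0% of all genes.

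Below the limit, 23 members had at least 10 reads in all, and their groups were compared in FPKM with the 11505 genes of that kind. HIST1H1E lay all below in Combo against Con, against 5.34% of such genes, in IR against Con, against 5.35%, and in Combo against Rx, against 3.55%. HIST1H1B lay all below in IR against Con, and in Rx against Con, against 6.21%, on 11 reads in all. In Rx against Con it was apart only after scaling for depth, since 1 Rx and 1 Con library had 1 read each. HIST1H3G lay all above in IR against Con, against 3.96%, and all below in Combo against IR, against 4.11%. HIST1H2BJ lay all above in Combo against Rx, against 7.32%. No other of the 23 was apart, where the shares above were 5.85% in Combo against Con, 3.08% in Rx against Con and 6.99% in Combo against IR, and for QTP averaged 0.191% above and 0.0956% below.

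To include sparse members, limma voom was run on the recovered reads of the 24543 genes with at least 10 reads in all, a choice made after the values were seen. It covered 36 members and called none of them in any of the 8 comparisons. Of all genes it called 0.0122% between Combo and Con, 0.0285% between Combo and IR, 0.212% for QTP averaged over radiation and 0% in the other 5. An unadjusted p under 0.05 was given to 7 members in Combo against Con (10.3% of all genes), 2 in Rx against Con (3.66%), 6 in IR against Con (5.44%), 2 in Combo against IR (12.9%) and 3 in Combo against Rx (8.77%). It was given to 1 member for the interaction (7.64% of all genes) and to 8 for radiation averaged over QTP (7.07%). The directions were mixed: 5 higher and 2 lower in Combo against Con, 1 each way in Rx against Con, 4 higher and 2 lower in IR against Con, 2 lower in Combo against IR, and 2 higher and 1 lower in Combo against Rx. The lower ones were HIST1H1E and HIST1H1B in both Combo and IR against Con, HIST1H1B in Rx against Con, HIST1H3G and HIST2H4A in Combo against IR, and HIST1H1E in Combo against Rx. The interaction gave 1 lower (HIST2H2AA4), and radiation averaged 7 higher and 1 lower, HIST1H1E, with a log2 difference of -2.68 (SE 0.51, voom adjusted p = 0.237). Its value rests on 55 reads in all and depends on the count that voom adds. HIST1H3G, named after its values were seen and with 45 reads, was the lone member with an unadjusted p under 0.05 for QTP averaged over radiation, where 8.76% of all genes had one. It had 4 reads in Combo, 7 in Rx, 23 in IR and 11 in Con, and a log2 difference of -2.04 (SE 0.61, adjusted p = 0.336).

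Genes of the same biology outside the clusters were set beside the members. Of 37 tested genes with roles in S phase, such as replication helicase and nucleotide supply genes, 36 had a lower mean in Combo than in Con and 36 a lower mean in irradiated than in sham libraries. Their median log2 differences were -0.41 and -0.27. None passed the adjusted threshold by limma, and 32 and 27 had an unadjusted p under 0.05, against 7.69% and 5.17% of all genes lower at that level. The 10 tested replacement histone genes had median differences of -0.27 and -0.15, with 8 lower in each comparison, 6 and 4 of them at an unadjusted p under 0.05, against the same shares of all genes.

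Among those, H2AFX, the H2A.X gene, averaged 28.7 ± 3.93 FPKM in Combo and 41.8 ± 4.00 in Con (SD, n = 3 each), a log2 difference of -0.53 (SE 0.12, limma adjusted p = 0.134). H2AFZ, the H2A.Z gene, averaged 43.5 ± 2.46 FPKM in Combo and 62.8 ± 10.5 in Con, a log2 difference of -0.51 (SE 0.14, adjusted p = 0.185). H3F3A and H3F3B differed by -0.29 (SE 0.11) and -0.35 (SE 0.11). The replacement linker genes H1FX and H1F0 differed by -0.21 (SE 0.17) and 0.28 (SE 0.38), all 4 with limma adjusted p of 0.214 or more.

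SLBP averaged 33.5 ± 2.07 FPKM in Combo and 36.3 ± 2.86 in Con, a log2 difference of -0.11 (SE 0.09, limma adjusted p = 0.616). NPAT averaged 2.67 ± 0.0940 FPKM in Combo and 2.59 ± 0.174 in Con, a difference of 0.03 (SE 0.10, adjusted p = 0.909). Of the 29 tested factors of histone transcription, processing and decay 24 had a lower mean in Combo than in Con, with a median log2 difference of -0.09, and 3 were lower at an unadjusted p under 0.05, where 7.69% of all genes were. Of the 20 tested histone chaperones 17 did, with a median of -0.15, and 7 were lower at such a p. Neither list held a gene past the adjusted threshold in any of the 8 comparisons.

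Within groups, libraries differed in the same direction in all 4 groups. Library 3 had the highest mean log2(FPKM + 1) of the 13 members and the lowest mean of the 37 S phase genes in each of the 4 groups. Its share of mitochondrial reads was the highest in 3 of the 4. Over the S phase genes the group means were 2.71 ± 0.15 in Combo, 3.01 ± 0.18 in Rx, 2.92 ± 0.06 in IR and 3.14 ± 0.18 in Con (SD, n = 3 each). For the 13 members they were 2.71 ± 0.16 in Combo, 2.49 ± 0.10 in Rx, 2.70 ± 0.18 in IR and 2.39 ± 0.14 in Con. Whether the S phase genes have a part in the level of the members was not tested. The 11 mesothelial markers summed to 686 to 1031 FPKM in Combo and 1025 to 1298 in Con. The 12 markers of other cell types summed to 12.996 to 15.98 FPKM in Combo and 15.7 to 17.3 in Con. Their part was not tested either.

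**Figure D5:**
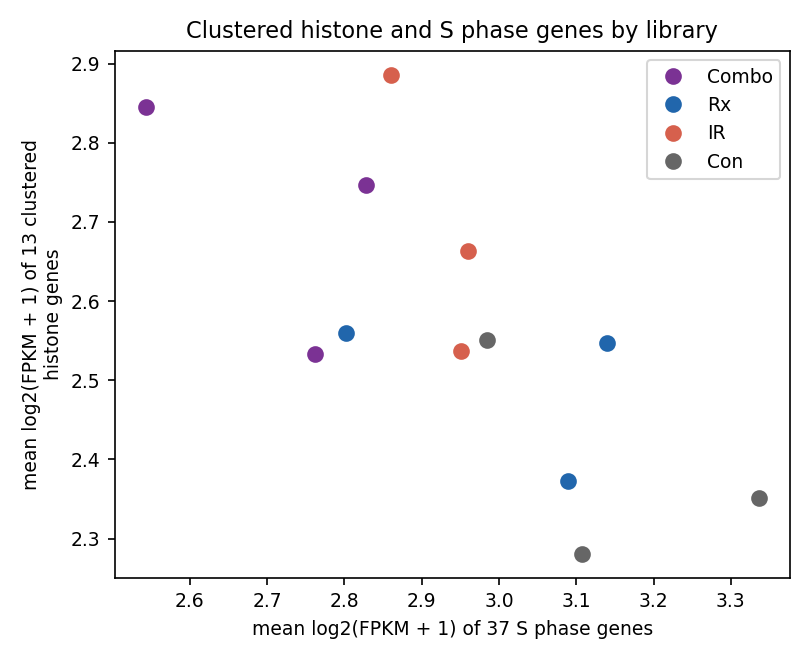
Each point is a library, with the mean log2(FPKM + 1) of 37 S phase genes on the horizontal axis and of the 13 tested members on the vertical axis, coloured by group. Combo libraries lie between 2.54 and 2.83 on the horizontal axis, and Con libraries between 2.98 and 3.34. The 13 members include HIST1H4K.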

How the data were processed

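RNA from 12 MSTO-211H libraries was analysed from 1 table. Per the labels' protocols, total RNA was purified by Trizol and spin column, and libraries were made with a NEBNext Ultra RNA kit and sequenced on a NovaSeq6000. Per the submitters' processing notes the genome build was hg38. No aligner, counter, use of strand or poly(A) selection is named by the sources used here. Per gene, the authors deposited FPKM, with gene length in bases and other annotation columns. No value column was left without a sample (0).

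In each library FPKM times gene length came in whole steps worth 1 read for 100% of values, within 0.01 read, which gave back the reads. The members' coordinates equal those of GENCODE 29 for 71 of 71. The share of 75-base stretches found in transcripts of other genes was counted there. Reads of near-identical or overlapping genes (16 members overlap another gene) may be misassigned.

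Group means of log2(FPKM + 1) were fitted with limma 3.58.1 (R 4.3.3) for genes averaging at least 1 FPKM, by two-sided moderated tests with the variance trend on and p-values adjusted over all of them by Benjamini-Hochberg (threshold 0.05). All 12 libraries shared 1 estimate of the spread. Members below 1 FPKM are described by reads. The test was checked on simulated data. Alternatives were another pseudocount, filter and scaling, limma voom on the reads, a replicate block, and fits without each library. Genes are named by a rule: the 3 highest members of each class, the 3 smallest p in 3 comparisons, and 6 members known for polyadenylated mRNA. The members, lists and rule were chosen with earlier results of these data known.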

Additional observations from a re-analysis of the deposited data

How the results depend on the processing

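No clustered histone gene was called in any of the 8 comparisons under another pseudocount, filter, scaling, voom, fits of only the groups compared or without a variance trend, or without any 1 library or IR 3 and Combo 3 together. With the replicate number as a block, 2 were called in Combo against Con, HIST1H2BK and HIST1H2AC (limma adjusted p = 0.0470 each), among 90 genes in all, and radiation averaged called 3 genes. Whether the numbers pair the libraries is not known. Deviations from the group means correlated above 0.1 in 11 of 18 same-numbered pairs (range -0.21 to 0.35). Of 12 libraries 11 correlated best with their own number. With the block, members at an unadjusted limma p under 0.05 numbered 7 in Combo against Con (15.2% of all genes) and 9 for radiation averaged (10.5%). There were 5 in IR against Con (8.34%), 3 in Combo against Rx (10.8%), 2 in Rx against Con (4.33%) and 1 for the interaction (8.2%). Combo against IR (19.5%) and QTP averaged (12.8%) had none. HIST1H2AG is among the 7 and the 9, and HIST1H4K among the 9.

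Counts over all genes moved. Without a filter they were 6 in Combo against IR, 5 in Combo against Con, 4 in Combo against Rx, 5 between IR and Con, 1 between Rx and Con, 6 for QTP averaged, 5 for radiation averaged and 6 for the interaction. QTP averaged gave 24 at a mean of at least 5 FPKM, 33 by voom, and 0 with TPM, with the median of ratios, without a variance trend and without IR 3 and Combo 3. Voom on all genes with at least 10 reads gave 3, 7 and 52 in Combo against Con, Combo against IR and QTP averaged. Leaving out 1 library gave 0 to 3 in IR against Con, 0 to 956 in Combo against IR (956 without IR 1), 0 to 18 for QTP averaged, 0 to 1 for radiation averaged and 0 to 3 for the interaction. The cause was not tested.

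Without its highest member, a class summed to 0.459 (H1), 15.9 (H2A), 15.3 (H2B), 1.89 (H3) and 4.27 FPKM (H4). With TPM, members lying all above numbered 6 in Combo against Con, 1 in Rx against Con, 4 in IR against Con and 4 in Combo against Rx. HIST1H4K is counted in Combo against Con and in Combo against Rx. Of 722 values of named members under the alternatives 684 kept their direction and call. The 36 that changed sign were those of HIST3H2A, HIST1H1C, HIST1H4I, HIST1H3H, HIST1H2AI and HIST1H4K. Without 1 library HIST3H2A ranged from -0.12 to 0.19 in Combo against Con, from -0.037 to 0.13 for QTP averaged and from -0.10 to 0.064 for radiation averaged. HIST1H2AI ranged from -0.11 to 0.30 in Combo against Con and from -0.14 to 0.12 for QTP averaged. For QTP averaged HIST1H1C ranged from -0.080 to 0.069, HIST1H4I from -0.094 to 0.069, HIST1H3H from -0.035 to 0.090 and HIST1H4K from -0.065 to 0.15. Without IR 3 and Combo 3 HIST3H2A was -0.10 in Combo against Con, and for QTP averaged HIST1H4I was 0.057 and HIST1H4K -0.084. HIST1H4K for QTP averaged was -0.017 with a pseudocount of 0.1, and -0.0035 and -0.0031 by voom. Without a filter the median over 57 members was 0.058 in Combo against Con, 0.057 in IR against Con, 0.058 in Combo against Rx, 0.013 in Rx against Con and 0.046 for radiation averaged.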

Other observations

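Many clustered histone genes lie in pairs that are transcribed away from each other from a shared stretch between them. There were 12 pairs of members on opposite strands, facing away, with at most 500 bases between them in the deposited gene models, and 11 of these joined an H2A and an H2B gene. In 10 pairs both genes had reads, and in 4 of the 10 their mean FPKM differed by more than 10-fold. These 4 include HIST1H2BO (16 reads in all) both with HIST1H3J (2 reads) and with HIST1H2AM (1 read), which overlap each other. HIST1H2BK averaged 74.0 FPKM and HIST1H2AH, 330 bases away, averaged 0.114 FPKM. HIST3H2A averaged 29.7 FPKM and HIST3H2BB, 233 bases away, averaged 0.493 FPKM. At the other end, HIST1H2AG was 1.14 times as high as HIST1H2BJ (0.968 FPKM), with 291 bases between them. Of the 11 H2A and H2B pairs, the H2B gene was the higher in 4, and in 1 (HIST1H2AA and HIST1H2BA) neither gene had a read. HIST1H2AJ was the higher over HIST1H2BM on 3 reads in all. These are levels over the 12 libraries with no test, and the gene models of a pair can differ in what they cover.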
